A study of Sus scrofa with 48 samples.

Results

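The swine leukocyte antigen (SLA) class I genes are the pig's major histocompatibility class I heavy chains. Class I heavy chains sit on the surface of most nucleated cells, pair with beta-2-microglobulin and show peptides from inside the cell to CD8+ T cells. SLA-1, SLA-2 and SLA-3 are the classical, highly polymorphic loci, and SLA-6, SLA-7 and SLA-8 are the non-classical loci. The loci are close in sequence, so a probe designed on 1 locus may also bind transcripts of another, and the gene named for each probe below is that of its design accession.

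All probes whose RefSeq accession belonged to SLA-1, SLA-2, SLA-3, SLA-5, SLA-6, SLA-7 or SLA-8 were taken. This gave 7 of the 43603 non-control probes of the array, for 5 of the 7 genes. SLA-2 had probe A_72_P299534, SLA-6 had A_72_P180906 and SLA-7 had A_72_P223217. SLA-3 had A_72_P114481 and A_72_P270324, both designed on NM_001097427, and SLA-8 had A_72_P070231 and A_72_P237472, both designed on NM_001113703. SLA-1 and SLA-5 were not matched to a probe and were not analysed here. The 4803 probes named by an Ensembl transcript were not matched to genes, so probes of these or other genes may be among them. In the Sscrofa11.1 RefSeq annotation, which may differ from the build behind the array, the 7 genes follow one another in the order SLA-1, SLA-5, SLA-2, SLA-3, SLA-8, SLA-7, SLA-6 along the chromosome.

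The study used Swiss Large White pigs of the F2 generation in a feeding experiment down the male line. F0 boars had eaten a standard diet (line F2 C, 8 pigs) or the standard diet with extra methionine, choline, betaine, vitamin B6, vitamin B12 and folate (line F2 E, 8 pigs), and the F1 boars between them had eaten the standard diet only. Each line had 4 barrows and 4 females, and gluteus muscle (GM), liver and kidney of each pig were put on 1-colour Agilent arrays, 48 in all. Supplementation was therefore given to grandsires, not to the pigs measured, and sire and litter of the F2 pigs were not used here.

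Values are log2 of the median spot signal after quantile normalization over the 16 arrays of a tissue. Between 18948 and 36804 spots per array were well above background by the scanner's own flag. All 15 probes of skeletal muscle markers were higher in every GM array than in every other array, as were all 7 probes of liver markers in liver and 3 of 4 probes of kidney markers in kidney. Pigs are named here as in the labels, f2_m_ for barrows and f2_f_ for females, followed by a number. The numbers form a lower (f2_m_2875 to f2_f_2899) and an upper (f2_m_2943 to f2_f_2969) series with 4 pigs of each line in each. In GM and kidney each slide held the 4 pigs of 1 line and 1 series, and in liver the pigs of the lower series were spread over slides that held both lines, while each upper set had a slide of its own. Within a series, slide and line therefore cannot be told apart in GM and kidney. Sets of 4 pigs with the same line and series are named as, for example, F2 C lower below.

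Of the SLA class I probes, 1 set itself apart from the other 6. The SLA-3 probe A_72_P114481 ran over the pigs from 5.43 to 13.78 in GM, 5.45 to 15.45 in liver and 4.85 to 15.32 in kidney, and had the same high and low pigs in the 3 tissues. The other SLA-3 probe, designed on the same accession, varied over 1.85, 1.41 and 1.65 log2 units. The SD of A_72_P114481 over pigs was 2.07, 2.51 and 2.61 for GM, liver and kidney, where the median probe of each tissue had an SD of 0.30, 0.30 and 0.34. Of the 25281 GM, 28279 liver and 33504 kidney probes present, 0.0633%, 0.0460% and 0.0567% had an SD at least as large.

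The level of A_72_P114481 in the 16 pigs was as follows. In the F2 C lower pigs f2_m_2875, f2_m_2878, f2_f_2884 and f2_f_2886 it was 13.45, 13.59, 13.65 and 13.61 in GM. The same pigs had 15.08, 14.91, 14.83 and 15.32 in liver, and 14.02, 15.32, 13.86 and 13.87 in kidney. All 4 were thus among the high pigs in every tissue.

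The F2 C upper pigs f2_m_2961, f2_m_2962, f2_f_2968 and f2_f_2969 had 11.52, 10.60, 11.12 and 10.76 in GM. In liver they had 12.76, 11.82, 11.63 and 11.62, and in kidney 12.11, 10.53, 10.62 and 11.07. No F2 C upper pig reached the level of any F2 C lower pig in any tissue.

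Among the F2 E lower pigs, f2_m_2890 had 13.38 in GM, 14.79 in liver and 13.13 in kidney. Pigs f2_m_2891, f2_f_2897 and f2_f_2899 had 11.33, 10.85 and 11.44 in GM. Their liver values were 12.37, 12.52 and 12.51 and their kidney values 11.21, 10.86 and 10.98. On this normalized scale pig f2_m_2890 was therefore high and the other 3 pigs of its set were low in every tissue, although in GM and kidney the 4 shared a slide. In kidney that rank rested on the normalization. The raw signal there was 1848.5 in f2_m_2890 and 2475, 402 and 1982.5 in the other 3. The median raw signal of F2 E kidney arrays ran from 48 to 240.5.

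The F2 E upper pigs f2_m_2944, f2_f_2949 and f2_f_2950 had 11.91, 12.63 and 13.78 in GM. Their liver values were 14.68, 14.60 and 15.45 and their kidney values 14.00, 14.93 and 14.86. The barrow f2_m_2943 of the same set had 5.43, 5.45 and 4.85. Its spot was not well above background in any of the 3 tissues, with a raw median signal of 38 in GM, 41 in liver and 28.5 in kidney over local background medians of 26.5, 21 and 17, so these values bound its level from above.

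**Figure D1:**
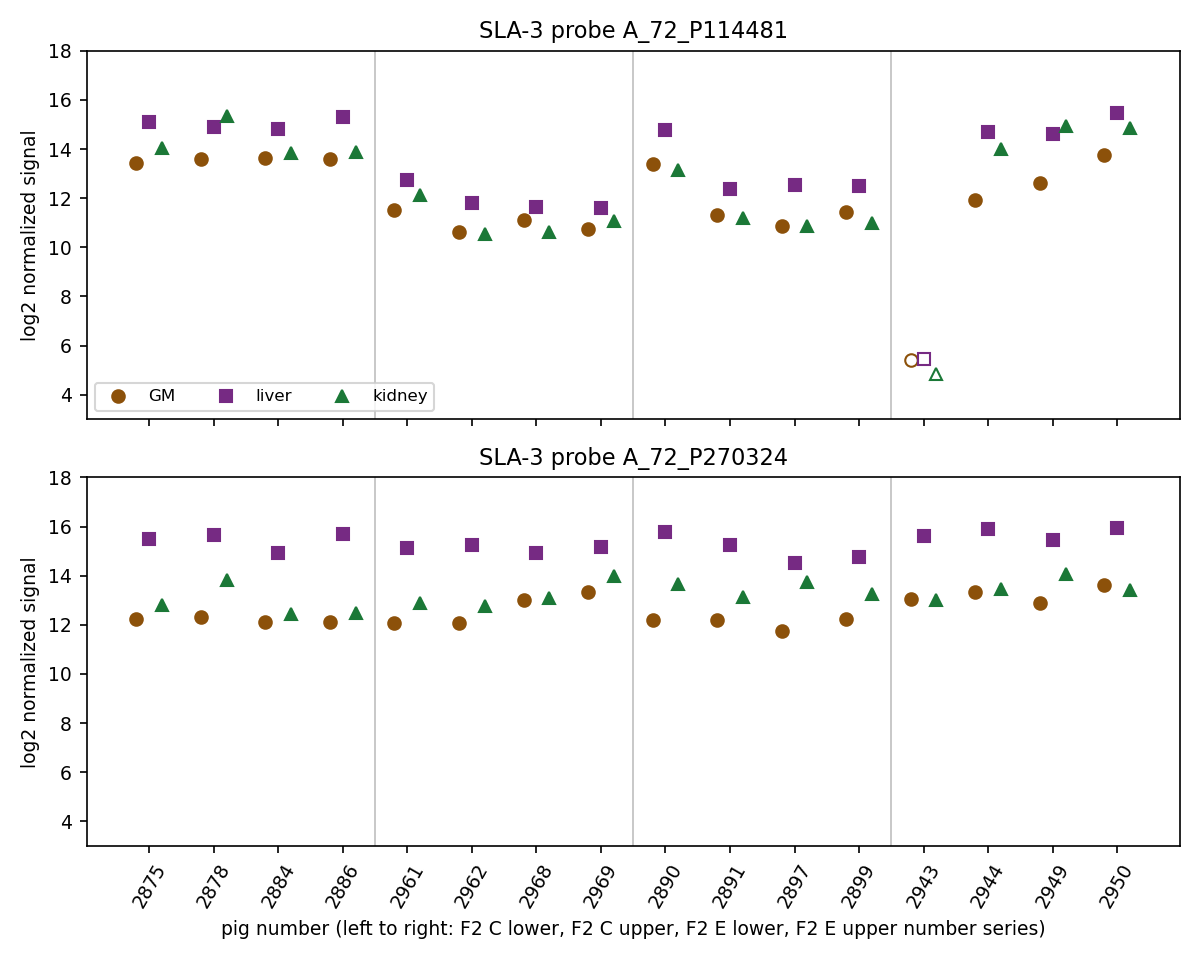
Signal of both SLA-3 probes in each pig. The x axis gives the 16 pigs in their 4 sets of line and number series, the y axis the log2 normalized signal, circles GM, squares liver and triangles kidney, with open symbols for spots not well above background. For A_72_P114481 the 3 symbols of a pig rise and fall together and pig f2_m_2943 lies near 5 in all tissues, and for A_72_P270324 the same pig lies at 13.04, 15.61 and 13.01.

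The same pigs were the highest in each tissue. The 8 highest pigs were the same in GM, liver and kidney: all 4 F2 C lower pigs, 1 F2 E lower pig and 3 F2 E upper pigs. The next 7 were all 4 F2 C upper pigs and 3 F2 E lower pigs, and pig f2_m_2943 was lowest. These ranks are of normalized values. By raw signal f2_m_2890 in kidney (1848.5) lay below f2_m_2891, f2_f_2899, f2_m_2961, f2_m_2962 and f2_f_2969 of the next 7 (1982.5 to 5791). In GM f2_f_2949 (2724.5) lay below f2_m_2891, f2_f_2899, f2_m_2961 and f2_f_2968 (2838 to 3032). The eighth and ninth pig were apart by 0.39 (GM), 1.85 (liver) and 1.02 (kidney) log2 units. The mean of the 8 highest pigs was, in the order GM, liver and kidney, 13.25 ± 0.64, 14.96 ± 0.30 and 14.25 ± 0.72 (SD, n = 8). The mean of the next 7 was 11.09 ± 0.36, 12.18 ± 0.47 and 11.06 ± 0.52 (SD, n = 7). Of the 23371 probes present and complete in all 3 tissues, 35 (0.150%) had the same 8 highest pigs in all 3, and the median probe shared 2. The split after the eighth pig was read from the values and is a description. In GM wider gaps lay inside the 8 highest pigs, and the widest gap in each tissue set only f2_m_2943 apart from the other 15, so the pigs were not taken as separate clusters.

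The other probes spread over fewer log2 units. SLA-2 had a median of 12.91 in GM (11.61 to 13.99), 15.47 in liver (13.80 to 15.99) and 12.32 in kidney (11.90 to 13.55). SLA-6 had 10.15 (9.44 to 10.77), 11.73 (11.39 to 12.18) and 12.85 (12.35 to 13.66). Both were well above background on all arrays. A_72_P270324 of SLA-3 had 12.24 (11.76 to 13.61), 15.36 (14.52 to 15.93) and 13.21 (12.43 to 14.08). The SLA-8 probes had 10.73 (9.60 to 11.21), 12.03 (11.24 to 12.46) and 12.38 (11.70 to 12.90) for A_72_P070231, and 12.02 (11.37 to 13.16), 14.77 (13.64 to 15.27) and 12.55 (11.90 to 13.52) for A_72_P237472.

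Pig f2_m_2943 was not low for the other SLA class I probes, except that SLA-7, near background, ranked 15 of 16 in kidney (5.89). Its SLA-2 probe read 13.41 in GM, 15.88 in liver and 12.33 in kidney, against means of 12.89 ± 0.66, 15.30 ± 0.67 and 12.47 ± 0.53 in the other pigs (SD, n = 15). Its probe A_72_P270324 of SLA-3 read 13.04, 15.61 and 13.01, against 12.50 ± 0.58, 15.32 ± 0.43 and 13.27 ± 0.53. Its A_72_P237472 probe of SLA-8 read 12.94, 15.25 and 12.54, against 12.20 ± 0.52, 14.66 ± 0.49 and 12.64 ± 0.47. In these 9 values the pig ranked between 2 and 11 of 16 from the top. The summed signal of 23 leukocyte marker probes, on the scale that joins the tissues, in pig f2_m_2943 was 12637 for GM, 89019 for liver and 19691 for kidney, inside the ranges of 6630 to 14894, 74601 to 119303 and 15789 to 21706 over all pigs.

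Each probe was also correlated with itself between tissues over the 16 pigs. A_72_P114481 was called in all 3 pairs of tissues and was the only 1 of the 7 probes called in each (adjusted p below 0.05 over all probes, r above 0). In all, 1.63% of 24325 probes were called between GM and liver, 1.73% of 25213 between GM and kidney and 1.88% of 28323 between liver and kidney. Between GM and liver its Pearson's r was 0.981 (permutation p = 1e-05, the smallest that 100000 permutations can give; adjusted p = 5.5e-08) and its Spearman's rho 0.947 (permutation p = 1e-05). Between GM and kidney r was 0.950 (permutation p = 2e-05; adjusted p = 1.39e-05) and rho 0.847 (permutation p = 9e-05). Between liver and kidney r was 0.972 (permutation p = 1e-05; adjusted p = 5.31e-07) and rho 0.835 (permutation p = 1.4e-04).

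The high r held without pig f2_m_2943, at 0.941, 0.880 and 0.937 for the 3 pairs. Without the 2 pigs farthest from the median it was 0.934, 0.864 and 0.938. Within the levels described above r was lower. The levels were cut from the values of this same probe, which narrows the range and by itself lowers r. The values within levels and their p are therefore a description. In the 8 highest pigs it was 0.673, 0.038 and 0.105 (exact permutation p = 0.0539, 0.937 and 0.793), with a rho of 0.810 between GM and liver (exact permutation p = 0.0218). In the next 7 it was 0.662, 0.657 and 0.651 (exact permutation p = 0.110, 0.0782 and 0.0825). These r were unstable. Without the 2 pigs farthest from the median of a level they were 0.614, 0.609 and −0.055 in the 8 highest. In the next 7 they were then 0.459, 0.161 and 0.771. For deviations from the mean of each of the 4 sets, which removes the slides of GM and kidney, r over all pigs was 0.984, 0.972 and 0.980. These values rested largely on the F2 E upper set, which holds pig f2_m_2943. In GM the SD was 3.75 in that set and 0.09, 1.12 and 0.41 in F2 C lower, F2 E lower and F2 C upper. The r within sets was not computed without this pig. Within sets 0.584%, 0.659% and 0.664% of all probes were called.

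**Figure D2:**
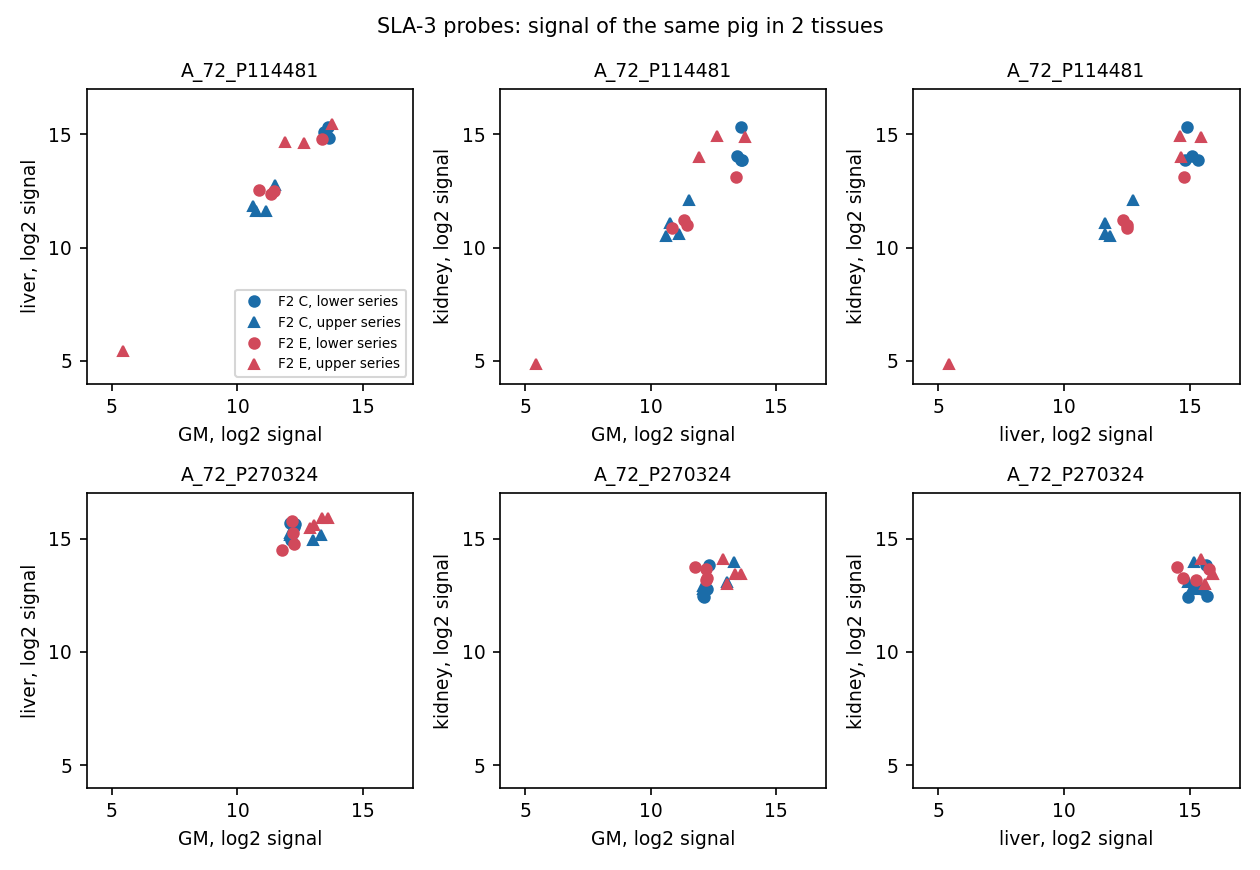
Signal of the same pig in 2 tissues, for A_72_P114481 (upper row) and A_72_P270324 (lower row) of SLA-3. Each axis is the log2 normalized signal of 1 tissue, each point 1 pig, coloured by line and shaped by number series. In the upper row 15 pigs as a whole rise together on both axes, and pig f2_m_2943 lies alone near 5 (r 0.981, 0.950 and 0.972 over all 16). The lower row shows 16 pigs within 2 log2 units (r 0.465, 0.357 and 0.0821).

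Of the other 6 probes, none was called in any pair. Their r ran from −0.0949 to 0.728, where the median over all probes was 0.0810, 0.0660 and 0.0578 for the 3 pairs. The highest was that of SLA-2 between GM and liver (r = 0.728, permutation p = 0.00116, adjusted p = 0.0670; rho = 0.574, permutation p = 0.0224). It was −0.24 within F2 C and 0.97 within F2 E. It passed the adjusted threshold without pig f2_f_2886 (r = 0.79, adjusted p = 0.0355) or without pig f2_f_2968 (r = 0.81, adjusted p = 0.0225), and r was lowest without f2_f_2897, at 0.596. Within sets r was 0.510, and it was 0.880 in the lower and 0.130 in the upper series. In F2 E, pigs f2_m_2891, f2_f_2897 and f2_f_2899, the 3 low F2 E lower pigs of A_72_P114481, were apart from the rest. Their SLA-2 signal was 12.24, 11.61 and 12.10 in GM and 14.24, 13.80 and 14.21 in liver. All other pigs had at least 12.48 in GM and 15.27 in liver, so these were the 3 lowest in both tissues. In kidney the same pigs had 11.97, 12.68 and 11.96 and lay inside the range of the rest, 11.90 to 13.55.

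Within a tissue, 5 of the probes correlated with each other over the pigs more closely than A_72_P114481 did with them. Among the probes of SLA-2, SLA-6, SLA-8 and A_72_P270324 of SLA-3, the 10 pairwise r ran from 0.470 to 0.974 in GM (median 0.616), from 0.444 to 0.970 in liver (median 0.727) and from 0.548 to 0.972 in kidney (median 0.663). The closest pair in every tissue was A_72_P270324 of SLA-3 with A_72_P237472 of SLA-8, with r of 0.974, 0.970 and 0.972 (each permutation p = 1e-05) and rho of 0.935, 0.967 and 0.944. Without the 2 farthest pigs their r was 0.968, 0.956 and 0.964. These were probes of different loci. Other pairs rested more on the 2 farthest pigs, without which SLA-2 with SLA-6 had r of 0.170 in liver (0.461 over all pigs) and 0.180 in kidney (0.644), and SLA-2 with A_72_P070231 had 0.173 in liver (0.444). A_72_P114481 against the same 5 probes had r from −0.417 to −0.0839 in GM, −0.258 to 0.254 in liver and 0.0931 to 0.371 in kidney, with permutation p of at least 0.110, 0.329 and 0.158. With A_72_P270324, the other probe of its accession, it had r of −0.18, 0.25 and 0.16. In liver this r was 0.726 without the 2 pigs farthest from the median, and rho was 0.538 over all pigs (permutation p = 0.0332). Without the same pigs the r of A_72_P114481 in liver went from 0.118 to 0.688 with A_72_P237472 and from 0.0704 to 0.469 with SLA-6, so there the low values rested on those 2 pigs. In all, 21 pairs of probes were compared in each tissue, and these p-values are not adjusted.

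**Figure D3:**
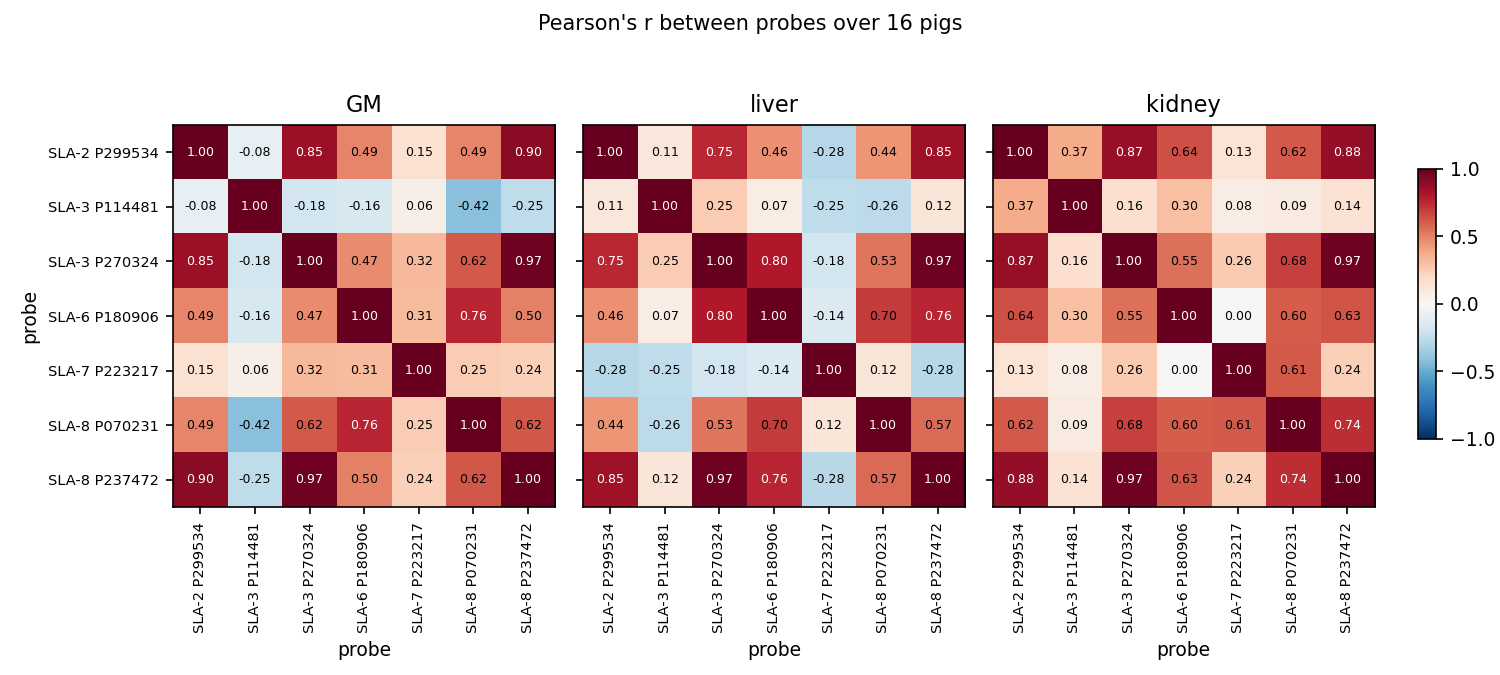
Pearson's r between the 7 SLA class I probes over 16 pigs in GM, liver and kidney. Both axes list the probes and the colour and number give r from −1 to 1. The row of A_72_P114481 stays between −0.42 and 0.37, and the block of SLA-2, SLA-6, SLA-8 and A_72_P270324 of SLA-3 is at 0.44 or above throughout.

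The named genes whose pattern over pigs was most like each probe were sought among the non-member probes present in the tissue, 1982 in GM, 2036 in liver and 2301 in kidney, after subtraction of line means. For A_72_P114481, NEU1, a lysosomal sialidase encoded in the major histocompatibility complex, was among the closest 3 in every tissue, with r of 0.71 in GM, 0.66 in liver and 0.62 in kidney over 16 pigs. In GM, TAP1, a subunit of the peptide transporter that loads class I molecules, was among the closest 3 for SLA-2 (r = 0.81), A_72_P270324 of SLA-3 (0.81) and A_72_P237472 of SLA-8 (0.84). In kidney, C1QA, a complement component, was among the closest 3 of the same 3 probes (0.79, 0.79 and 0.81). SLA-6 was closest in kidney to VSTM4 (0.92), the class II chain SLA-DRB1 (0.92) and the transcription factor IRF1 (0.92). A_72_P070231 of SLA-8 was closest in kidney to FCGR3A (0.93), a receptor for antibody on leukocytes, to GP91-PHOX (0.91), the phagocyte oxidase chain, and to PSMB10 (0.90), an immunoproteasome subunit. Each r is among the highest over all probes searched and is a description.

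No SLA class I probe passed the test between F2 E and F2 C in any tissue. The comparison asked whether supplementation of the F0 grandsires went with another level of class I RNA in the F2 pigs. Limma called 0 of 7 probes in GM, where 0.769% of 25625 probes were called, 0 of 7 in liver (0.0937% of 28823) and 0 of 7 in kidney (0.0119% of 33664). At an unadjusted p below 0.05, 1 was found in GM, 0 in liver and 0 in kidney, where 16.1%, 8.29% and 3.89% of all probes were. The methods' t-test also gave 0 of 7 in each tissue after Benjamini-Hochberg adjustment. The median F2 E minus F2 C over the 7 probes was 0.24, 0.08 and 0.22 for GM, liver and kidney, beside −0.02, −0.02 and −0.01 over all probes. The groups overlapped for all 7 probes in all 3 tissues.

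The probe with an unadjusted p below 0.05 was A_72_P070231 of SLA-8 in GM. It was 10.38 ± 0.61 in F2 C and 10.83 ± 0.23 in F2 E (SD, n = 8 each), a difference of 0.45 (SE 0.21, 95% interval 0.00 to 0.89, limma adjusted p = 0.308, exact permutation p = 0.0730). The F2 C lower pigs had 9.60, 10.10, 9.97 and 9.72 and were the 4 lowest, while the F2 C upper pigs had 10.76, 10.67, 11.16 and 11.05, inside the range of F2 E. The difference was 0.80 in the lower series, where limma called it (adjusted p = 0.0279), and 0.10 in the upper series (adjusted p = 0.732). The share of all probes called in the lower series alone was not counted, so the call cannot be set beside it. In GM the F2 C lower pigs were 1 slide, so set and slide cannot be told apart. In liver the difference was 0.08 and in kidney 0.26, neither called.

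For A_72_P114481 the difference between lines was −0.94 in GM (95% interval −2.85 to 0.97), −0.70 in liver (−3.06 to 1.66) and −0.82 in kidney (−3.35 to 1.70), with limma adjusted p of 0.637, 0.905 and 1.00. F2 C had 12.29 ± 1.40, 13.50 ± 1.69 and 12.68 ± 1.83, and F2 E 11.34 ± 2.60, 12.80 ± 3.21 and 11.85 ± 3.29 (SD, n = 8). The values of the number series were apart, and the difference between the series was not tested. In the lower series F2 E minus F2 C was −1.82, −1.99 and −2.72 for GM, liver and kidney (limma adjusted p = 0.0826, 0.205 and 0.0809 in the lower series alone). On the normalized scale every F2 C pig of this series was above every F2 E pig in each tissue. The margin was narrow in GM (13.45 in f2_m_2875 and 13.38 in f2_m_2890) and in liver (14.83 in f2_f_2884 and 14.79 in f2_m_2890). By raw signal the lines overlapped there. Pig f2_m_2890 was above all 4 F2 C pigs in GM (13437, against 8424.5 to 13037) and above f2_f_2884 in liver (29446.4 and 28542.8). How many of all probes part the lower series in this way was not counted. In GM and kidney slide and line cannot be told apart here. In the upper series F2 E minus F2 C was −0.06, 0.59 and 1.07. There, on the normalized scale, 3 F2 E pigs lay above all 4 F2 C pigs and pig f2_m_2943 below them. Without pig f2_m_2943 the difference over all pigs was −0.10, 0.35 and 0.18.

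For the other 5 probes the differences were smaller, between −0.34 and 0.44. The lowest was SLA-2 in liver, 15.51 ± 0.23 in F2 C and 15.16 ± 0.91 in F2 E (SD, n = 8), −0.34 with a 95% interval of −0.97 to 0.28. It was −1.11 in the lower and 0.42 in the upper series, a difference that was not tested. The highest was A_72_P270324 of SLA-3 in kidney, 13.03 ± 0.58 and 13.47 ± 0.35, 0.44 with an interval of −0.03 to 0.91 (exact permutation p = 0.0873). The difference between the lines was also compared between tissues. In the test of the interaction of line and tissue 0 of 7 probes were called in each of the 3 pairs of tissues, beside 0.0822%, 0.0516% and 0.0212% of all probes, and the smallest adjusted p of a member was 0.881.

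**Figure D4:**
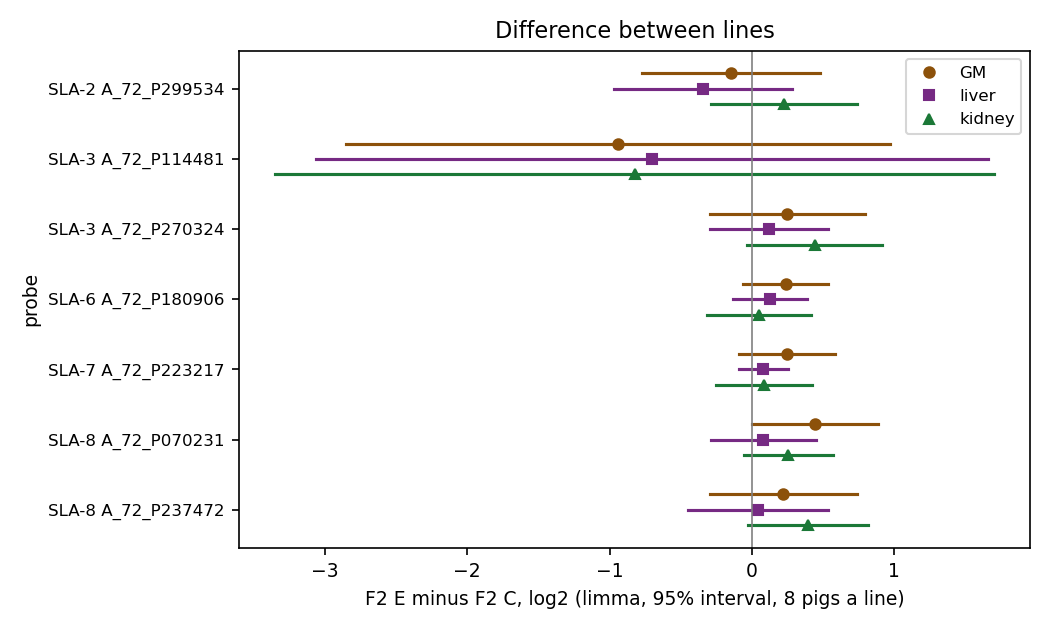
F2 E minus F2 C of the 7 SLA class I probes in 3 tissues. The x axis is the log2 difference from limma with its 95% interval over 8 pigs a line, and the y axis lists the probes. The intervals of A_72_P114481 are the widest, for example −3.35 to 1.70 in kidney, and A_72_P070231 of SLA-8 in GM is the only interval that does not reach 0.

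Other genes of class I antigen presentation were not called between the lines either. Of 26 genes listed for it, 10 had a named probe. Limma called 0 of 16 (GM), 0 of 17 (liver) and 0 of 16 (kidney) of their probes. Of all probes 0.769%, 0.0937% and 0.0119% were called, and 0 is near these shares. At an unadjusted p below 0.05 there were 0, 1 and 0, beside 16.1%, 8.29% and 3.89% of all probes. TAP1 differed by −0.11 and −0.29 in GM over its 2 probes, and the immunoproteasome subunits PSMB8 and PSMB9 by 0.07 and 0.06. B2M, TAP2, TAPBP and NLRC5 were not matched to a probe and were not analysed here. Of 20 interferon-induced genes 12 had a named probe, with 0 of 15, 0 of 17 and 0 of 17 called. Of 25 leukocyte markers 14 had one, with 0 of 14, 0 of 20 and 0 of 22 called. At an unadjusted p below 0.05 there were 0, 3 and 0 interferon-induced probes and 1, 2 and 0 leukocyte probes.

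Tissues were compared next. For this, all 48 arrays were normalized together and the pig was kept as a block, and a probe was called at an adjusted p below 0.05 and a difference of at least 2-fold. By adjusted p alone, 7 of 7 probes passed between liver and GM (77.4% of all), 7 of 7 between kidney and GM (76.1%) and 5 of 7 between kidney and liver (70.9%). Levels below are on that joint scale and are compared between tissues for 1 probe at a time, not between probes. Of all calls between liver and GM 49.4% were higher in liver, of those between kidney and GM 52.7% higher in kidney, and of those between kidney and liver 54.1% higher in kidney. With each tissue normalized alone these shares were 83.4%, 90% and 74.1%, and with the median signal scaled to its 75th percentile 42.8%, 29.6% and 39.9%. With the processed signal scaled in the same way they were 50%, 49% and 51.8%.

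Against GM, 3 of 7 probes were higher in liver, where 17.2% of 30124 probes were higher and 17.6% lower, and 0 were lower. SLA-2 rose from 13.60 ± 0.59 in GM to 15.17 ± 0.61 in liver (SD, n = 16), a log2 difference of 1.57 (SE 0.15, limma adjusted p = 3.71e-12), and was higher in liver in 16 of 16 pigs. A_72_P270324 of SLA-3 rose by 1.93 (SE 0.14, adjusted p = 4.43e-15) and A_72_P237472 of SLA-8 by 1.61 (SE 0.14, adjusted p = 2.95e-13), each in 16 of 16 pigs. SLA-6, A_72_P070231 of SLA-8 and A_72_P114481 differed by 0.71, 0.58 and 0.54, under the 2-fold limit, in 15, 14 and 14 of 16 pigs.

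Against liver, 4 of 7 probes were lower in kidney, where 11.9% of 34164 probes were lower and 14% higher, and 0 were higher. SLA-2 fell by 3.22 on the log2 scale, to 11.95 ± 0.54, which is 9.30-fold (SE 0.15, limma adjusted p = 5.99e-21). A_72_P237472 of SLA-8 fell by 2.46 and A_72_P270324 of SLA-3 fell by 2.40, and these 3 were lower in kidney in 16 of 16 pigs. A_72_P114481 fell by 1.22 (SE 0.19, adjusted p = 5.57e-07), in 14 of 16 pigs. That call was lost without the pig as a block (adjusted p = 0.179) and fell under the 2-fold limit with each tissue normalized alone (−0.88). SLA-6 was 0.68 higher in kidney, in 15 of 16 pigs, and A_72_P070231 of SLA-8 differed by −0.11 (adjusted p = 0.379).

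Between kidney and GM, 1 of 7 probes was higher in kidney and 1 lower, where 17.7% and 16% of 34079 probes were. SLA-6 rose from 11.02 ± 0.27 in GM to 12.42 ± 0.36 in kidney (SD, n = 16), by 1.40 (SE 0.10, limma adjusted p = 2.19e-15), in 16 of 16 pigs. SLA-2 fell by 1.65 (SE 0.15, adjusted p = 1.15e-12), in 16 of 16 pigs. When each tissue was normalized alone, which moved the median difference of all probes from 0.06 to 0.91, A_72_P114481, A_72_P270324 and A_72_P237472 turned from lower to higher in kidney (−0.68, −0.46 and −0.85 to 0.45, 0.72 and 0.39), and SLA-7 from −0.42 to 0.33. SLA-2 was then lower by less than 2-fold (−0.46), so its call was lost.

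All of SLA-2, A_72_P270324 and A_72_P237472 were highest in liver. Below liver, GM was above kidney for SLA-2, while for the other pair the order of GM and kidney depended on the normalization. SLA-6 went from kidney over liver to GM, with each single step under 2-fold. With each tissue normalized alone both steps were over 2-fold, at 1.59 for liver against GM and 1.19 for kidney against liver. For A_72_P070231 of SLA-8, no difference between liver and kidney was shown (95% interval −0.34 to 0.12) and both were above GM by less than 2-fold. With each tissue normalized alone, liver was 1.43 and kidney 1.84 above GM, and kidney 0.41 above liver. SLA-7 was close to background. It was well above background on 9 of 16 arrays in GM, 13 in liver and 15 in kidney, with a median level of 5.95, 6.35 and 6.30 on the tissue scale, and no tissue contrast of it was called.

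**Figure D5:**
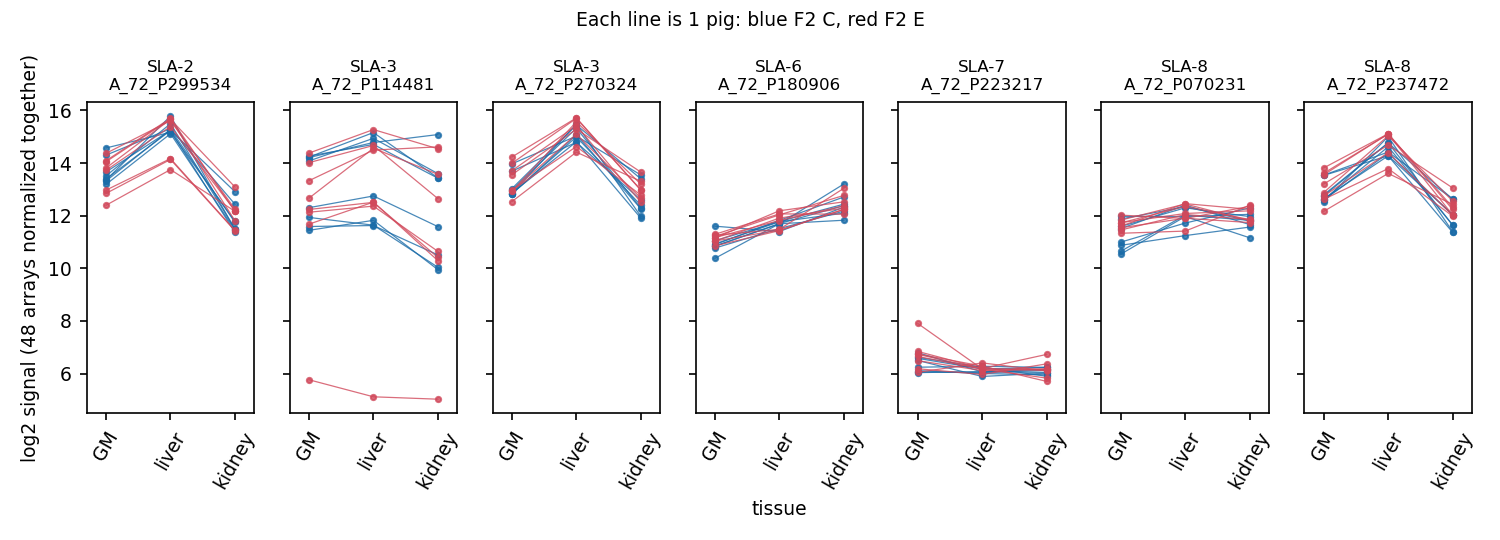
Level of each SLA class I probe in GM, liver and kidney. The y axis is log2 signal with all 48 arrays normalized together, each line is 1 pig, blue F2 C and red F2 E, and levels of different probes are not on a common scale of amount. SLA-2, A_72_P270324 of SLA-3 and A_72_P237472 of SLA-8 peak in liver in 16 of 16 pigs, and SLA-6 ends higher in kidney than in GM in 16 of 16.

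The 2 probes of SLA-8 did not give the same tissue pattern, although both were designed on 1 accession. From liver to kidney A_72_P237472 changed by −2.46 ± 0.65 and A_72_P070231 by −0.11 ± 0.50 (SD, n = 16), a difference of −2.34 ± 0.54 with the same sign in 16 of 16 pigs (exact permutation p = 3.05e-05 over sign changes, the smallest 16 pigs allow). From GM to liver they changed by 1.61 ± 0.46 and 0.58 ± 0.43 (difference 1.03 ± 0.32, exact permutation p = 3.05e-05). The 2 probes of SLA-3 differed as well. From GM to liver A_72_P270324 changed by 1.93 ± 0.48 and A_72_P114481 by 0.54 ± 0.59 (difference 1.39 ± 0.65, exact permutation p = 6.1e-05), and from liver to kidney by −2.40 ± 0.64 and −1.22 ± 0.78 (difference −1.17 ± 1.02, exact permutation p = 8.54e-04). From GM to kidney no difference between the SLA-3 probes was shown (difference 0.22 ± 1.17, exact permutation p = 0.467).

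Leukocyte markers that were called against liver were all higher in liver. Of 20 leukocyte marker probes tested between liver and GM 15 were higher in liver and 0 lower, where 17.2% and 17.6% of all probes were. Of 22 tested between kidney and liver 12 were lower in kidney and 0 higher, where 11.9% and 14% of all probes were. Their summed signal on the joint scale was 6630 to 14894 in GM, 74601 to 119303 in liver and 15789 to 21706 in kidney, with all probes of the macrophage markers CD163 and CD14 well above background in liver on 16 of 16 arrays. In GM the T cell markers were mixed. Both probes of CD4, the CD2 probe, 1 probe of CD3G and 1 of CD3D were well above background on 0 of 16 arrays, as was the B cell marker CD79A, while CD3E, CD8A and the other CD3G probe were so on 13 and both CD247 probes on 16. Of 17 interferon-induced probes 16 were higher in liver than in GM (17.2% of all probes), and 13 were lower in kidney than in liver (11.9% of all). Between kidney and GM, where SLA-2 was lower in kidney, 2 of 22 leukocyte probes were higher and 2 lower, and 5 of 17 interferon-induced probes were higher and 0 lower. Of all probes 17.7% were higher and 16% lower in that contrast. In pieces of tissue, fewer cells of a type and less RNA per cell cannot be told apart, and the part of leukocytes in the SLA differences was not tested.

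Among the genes of class I antigen presentation, 5 of 17 probes were higher in liver than in GM, where 17.2% of all probes were, and 0 lower: PSME1 by 1.62, IRF1 by 1.39, PSMB9 by 1.38, PSMB8 by 1.27 and PSME2 by 1.04. PSME1 and PSME2 are the proteasome activator subunits. Between kidney and liver 5 of 17 were lower, beside 11.9% of all probes, and 0 higher: FCGRT, the class I-like Fc receptor, by −2.27 on 1 probe, TAP1 by −2.05 and −1.28, IRF1 by −1.44 and PSME2 by −1.06. The other FCGRT probe differed by −0.10. Between kidney and GM 3 of 16 were lower, a share near the 16% of all probes, with both TAP1 probes by −1.95 and −1.43 and 1 FCGRT probe by −1.33, where its other probe was 0.70 higher in kidney. The median over the list was 0.81, −0.69 and 0.31 for liver against GM, kidney against liver and kidney against GM, beside 0.03, 0.02 and 0.06 over all probes.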

How the data were processed

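Gluteus muscle, liver and kidney RNA of 16 pigs was hybridised to 48 Agilent 1-colour porcine arrays. The deposited scanner files, made by the authors with Feature Extraction (10.5.1.1 in the file headers), hold the median spot intensity without background subtraction, a processed intensity and the flags used here. From these, the median intensities were quantile-normalized within each tissue and log2-transformed (R 4.3.3, limma 3.58.1). Spots marked as non-uniform or as population outliers were then left out. A probe was present in a tissue where 50% or more of the arrays of 1 line had its signal above 25 and its flag set as well above background, and was tested with at least 2 unmarked arrays a line. Probes were named through RefSeq accessions, which gave 2628 named probes.

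Lines were compared with limma, tissues with limma after joint normalization with the pig as a block, and tissues of the same pig by correlation with 100000 permutations. P-values were Benjamini-Hochberg adjusted over all probes tested. Those of lines and of correlations rest on the spread between these pigs. Those that compare tissues, with the pig as a block, rest on the spread of differences within pigs. All take the pigs as independent, although pigs of a line may share a sire or litter. The number of pigs, and of the families they come from, limits the precision. Replicate numbers were not taken to pair pigs of different lines, whereas the pig pairs the tissues by design: the deviations of 1 pig in 2 tissues had a median correlation of 0.193, 0.136 and 0.240 for GM with liver, GM with kidney and liver with kidney.

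Named genes were all SLA class I probes, the listed presentation genes that were called or central to the pathway, and the 3 named probes most correlated with each member. The members and lists were chosen with earlier results of these data known. The 3 deposited tables of the authors' own comparison hold processed log2 signals, fold changes and p-values and were not used. The fitting steps were tested on simulated data. Other normalizations, filters, blocks and tests and leaving out each pig were tried. Normexp on the median signals was added after seeing the data.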

Additional observations from a re-analysis of the deposited data

Results flagged for a closer look

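In each line and tissue, the gap between the most extreme pig and its nearest neighbour was divided by the range of the 8 pigs. It exceeded Dixon's 95% critical value in 4 of 42 groups, and chance gives about 1 in 20. For A_72_P114481 of SLA-3, pig f2_m_2943 stood apart among the F2 E pigs in all 3 tissues, with a share of 0.650 in GM (5.43, nearest pig 10.85), 0.6915 in liver (5.45, nearest 12.36) and 0.597 in kidney (4.85, nearest 10.86). The 3 values come from 1 animal. For SLA-7, which was near background, pig f2_f_2949 stood apart among the F2 E pigs in GM with a share of 0.613 (7.04, nearest pig 6.17).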

How the results depend on the processing

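Of 290 counts of called probes recomputed under other settings, 7 moved by more than 1.5 times, and no called result turned its direction. Between F2 E and F2 C, 0 of 7 SLA class I probes were called in each tissue under every setting run but 1. Leaving out each pig in turn gave 0 to 0. The lower number series alone gave 1 in GM, where the share of all probes called was not counted. With the replicate number of the labels as a block, 0 were called in GM, liver and kidney (smallest adjusted p 0.260, 0.672 and 1.00). The number was not taken as a pairing of pigs in the main test. The deviations of same-numbered pigs correlated above 0.1 in 2, 6 and 3 of 8 pairs, with a median of 0.044, 0.175 and −0.145 for GM, liver and kidney. The liver slide as a fixed block gave 0 (smallest adjusted p 0.0992). Between liver and GM, 6 probes were called instead of 3 with each tissue normalized alone. Between kidney and GM, 4 were called on the processed signal and 5 on the median signal, each scaled to the 75th percentile, instead of 2. These scalings moved the median of all probes: each tissue alone by 0.77, 0.91 and 0.19 for liver with GM, kidney with GM and kidney with liver, and the scaled median signal by −0.16, −0.59 and −0.37. The cause of the moved counts was not tested further. Leaving out each pig gave 3 to 3, 2 to 2 and 4 to 4 calls between tissues. Correlations between GM and liver called 2 probes instead of 1 on the processed signal, and 1 to 2 without each pig. The r of A_72_P114481 without each pig was 0.94 to 0.99, 0.88 to 0.96 and 0.94 to 0.98. A filter asking for signal well above background on all arrays removed A_72_P114481 and SLA-7, which then had no value. Normexp on the mean signal could not be run from the columns analysed here and was run on the median signal in its place, and naming by an array annotation was not run.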
